A study of Mus musculus with 6 samples.

Results

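A set of 8 genes linked to the interleukin-17-producing subset of invariant natural killer T (iNKT) cells was followed in RNA sequencing of mouse liver iNKT1 cells. The genes were taken by name: the transcription factor genes Rora, Maf and Ahr, the protease inhibitor gene Serpinb1a, the paired membrane protein genes Tmem176a and Tmem176b, the kinase gene Blk and the receptor gene Il17re. Of these 8, 7 were measured among the 12942 genes of the deposited table, and Blk was not analysed here. The group named cKOHet in the labels had the genotype Tbx21Cre Ets1F/F Tbx21F/+ Rosa26-YFP+, so both Ets1 alleles and 1 Tbx21 allele were floxed. The control group was Tbx21Cre Rosa26-YFP+, and both groups therefore shared the Cre and the YFP reporter. Each group had 3 libraries, numbered 1, 2 and 4, of primary liver cells that had been sorted for CD1d tetramer binding and YFP. Because the Cre follows Tbx21, YFP marks cells that have expressed that gene, and cells of other iNKT subsets enter the sort only if they did so too. The titles of control replicate 4 and cKOHet replicate 1 say iNKT, and the other titles say iNKT1. The labels give no age and do not name the mice, and replicate 1 of both groups carries a double column code that is left unexplained. The comparison asks what the loss of Ets1 with 1 floxed Tbx21 allele does in these cells.

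iNKT cells are T cells with innate features, which see lipids presented by CD1d and leave the thymus as subsets resembling helper T cells. iNKT1 cells depend on T-bet, the product of Tbx21, and dominate in mouse liver, whereas iNKT17 cells, which make interleukin 17, are sparse there. Rora, Maf and Ahr encode factors that act in type 17 lymphocytes, but all are also used by other lymphocytes. Serpinb1a, Tmem176a and Tmem176b are markers of mouse type 17 cells, Blk is a Src-family kinase of B cells and of type 17 innate-like T cells, and Il17re encodes the receptor chain for interleukin 17C.

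Tmem176a and Tmem176b lie head to head, and the sequence upstream of each is shown because the genes fell together in cKOHet libraries. The RefSeq promoter table (GRCm38.p6) matched 4 of the 8 genes: Il17re, Rora, Tmem176a and Tmem176b. Of the annotated starts, the nearest facing pair is at 48841374 for Tmem176b and 48841483 for Tmem176a on chromosome 6, with 108 bases between them. Each line below gives the 250 bases before 1 start, 5′ to 3′ on the gene's own strand, with matches on either strand to the ETS-type motif CNGGAAGT in capitals. These letters, in which N is any base, were chosen with the windows in view.
Tmem176a (chr6:48841233-48841482, + strand): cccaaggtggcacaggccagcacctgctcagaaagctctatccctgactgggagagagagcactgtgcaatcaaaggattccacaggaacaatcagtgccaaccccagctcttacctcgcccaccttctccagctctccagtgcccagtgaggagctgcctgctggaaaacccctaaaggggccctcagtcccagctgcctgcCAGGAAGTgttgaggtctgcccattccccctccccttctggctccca
Tmem176b (chr6:48841375-48841624, - strand): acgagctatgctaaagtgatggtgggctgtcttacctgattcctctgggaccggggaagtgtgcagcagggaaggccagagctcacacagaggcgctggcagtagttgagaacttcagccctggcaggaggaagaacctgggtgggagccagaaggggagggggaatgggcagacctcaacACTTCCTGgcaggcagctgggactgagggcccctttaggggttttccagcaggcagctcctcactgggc
Rora (chr9:68653536-68653785, + strand): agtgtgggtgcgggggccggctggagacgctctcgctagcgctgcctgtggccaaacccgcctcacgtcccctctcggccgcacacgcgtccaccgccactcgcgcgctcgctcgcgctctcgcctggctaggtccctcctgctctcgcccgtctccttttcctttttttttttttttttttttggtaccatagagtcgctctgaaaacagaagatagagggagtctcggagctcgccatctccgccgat
The capitals of the Tmem176a and Tmem176b windows are the same 8 bases of DNA read on opposite strands. The match begins 47 bases before the Tmem176a start and 69 bases before the Tmem176b start, in the stretch between both starts. The same motif was found in 7.58% of 32851 RefSeq windows of this length. Windows of the other annotated Tmem176b starts, at 48840988 and 48841137, are not printed and held no such match. That of the other Tmem176a start, at 48841656, held the same 8 bases, beginning 220 bases before it. No such match was in the Rora window or in that of Il17re. The Rora window held the AHR-ARNT core GCGTG, present in 28.2% of windows, and none of the members' windows held the T-box letters TCACACC (3.33%), the ROR half-site AGGTCA (14%) or the MAF half-site TGCTGA (16.1%). A match is a description of letters and not a bound site.

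Levels are normalised read counts, which the authors deposited, and fold changes are differences of mean log2(value + 1), cKOHet minus control, a scale that understates changes of low genes. Of the 6 members that passed the filter on low values, 4 rose and 2 fell, and their groups did not overlap. Among all 11226 genes tested with limma, 21.4% were called at an adjusted p under 0.05, 11.5% higher and 9.97% lower in cKOHet libraries, and 35.8% had groups that did not overlap. The median fold change of the 6 tested members was 1.31 and that of all genes tested was 0.01. Because the members were chosen with earlier results known, these counts are a description of them alone. With 3 libraries against 3, an exact permutation test of a single gene cannot give a two-sided p below 0.1. In such bulk samples, a change in the number of cells of a type and a change in the RNA per cell cannot be told apart.

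**Figure D1:**
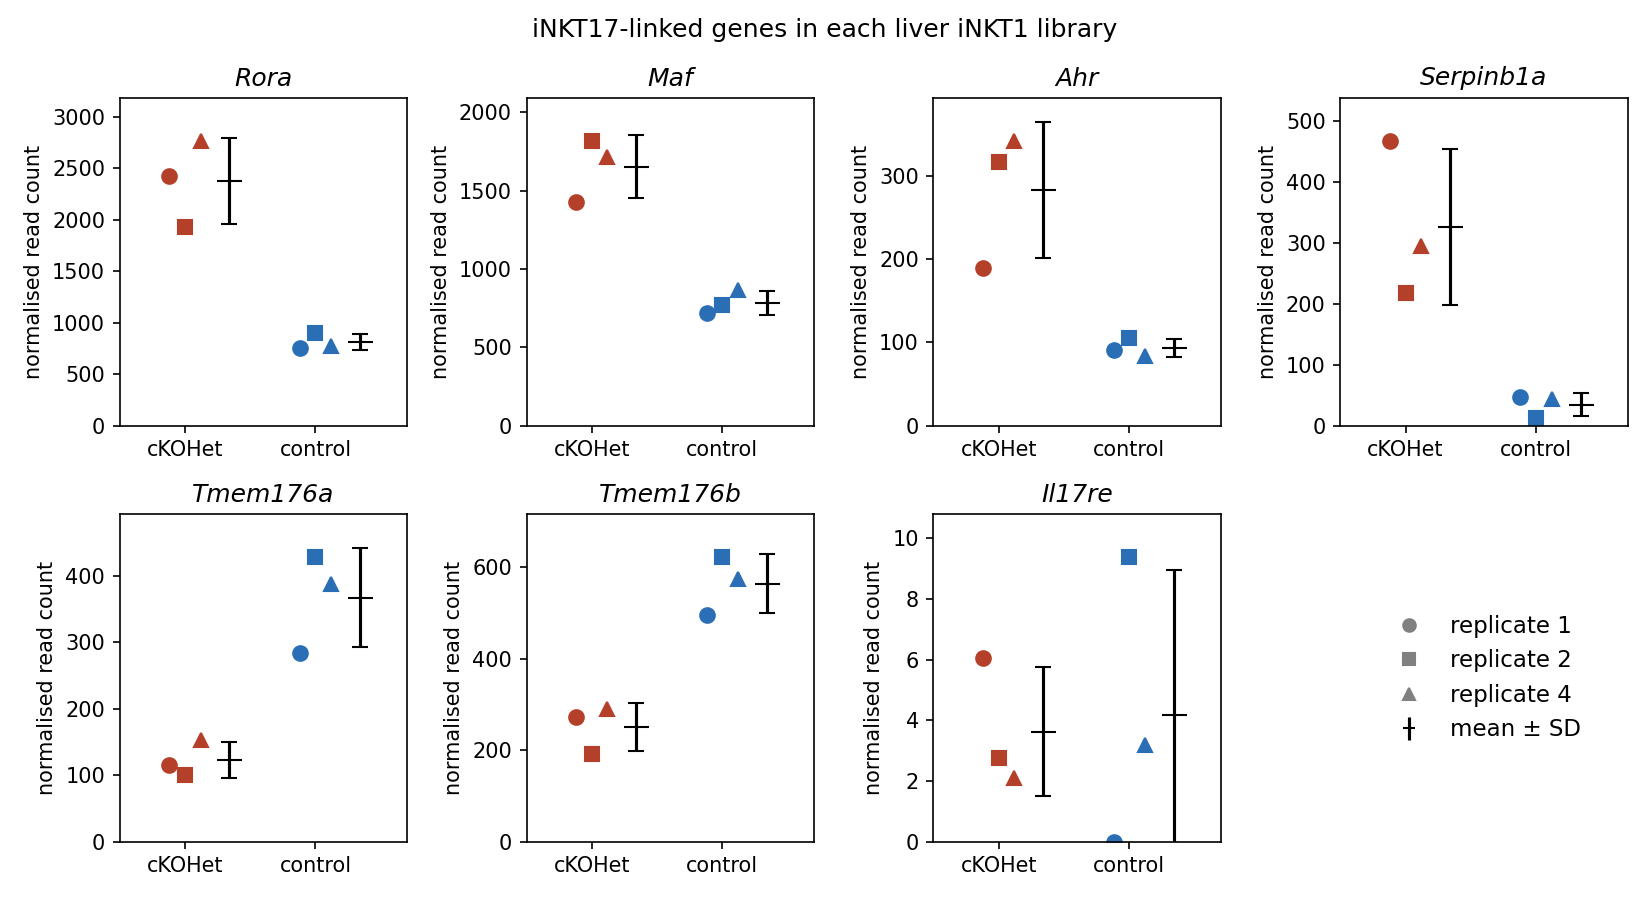
Normalised read counts of the 7 measured iNKT17-linked genes in each library, with cKOHet on the left and control on the right of each panel and a linear axis from 0. Symbols mark the replicate numbers, and bars give the mean ± SD of 3 libraries. The groups are apart for every gene except Il17re, which stays below 10 in both.

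Rora encodes RORα, a nuclear receptor that binds DNA as a monomer and acts in type 17 and type 2 lymphocytes as well as in the circadian clock. It was at 2430.3, 1933 and 2769 in cKOHet replicates 1, 2 and 4, against 759, 898 and 777 in control replicates 1, 2 and 4. Its lowest cKOHet library was above its highest control. Rora (ENSMUSG00000032238, mm10 chr9:68653786-69388246, + strand) rose by a log2 fold change of 1.54 (95% interval 1.24 to 1.83, limma adjusted p = 1.06e-06), or 2.91-fold. Genes on the opposite strand overlap 82 exonic bases of Rora, 440 of Maf and 127 of Ahr, and were not measured themselves. The exon lengths of Rora, Maf and Ahr are 13071, 8241 and 6163 bases.

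Maf encodes c-MAF, a basic leucine zipper factor of helper T cells that drives cytokine genes such as Il4, Il21 and Il10. Maf was at 1427, 1819 and 1712 in cKOHet replicates 1, 2 and 4, against 716, 768 and 864 in control replicates 1, 2 and 4. All 3 cKOHet libraries were above all controls, and Maf had the narrowest fold change interval of the members that rose. Maf (ENSMUSG00000055435, chr8:115682942-115707794, - strand) rose by 1.07 (0.80 to 1.35, adjusted p = 1.75e-05).

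Ahr encodes the aryl hydrocarbon receptor, a ligand-activated factor that senses plant, microbial and industrial compounds and maintains tissue lymphocytes. Ahr was at 189, 317 and 342 in cKOHet replicates 1, 2 and 4, against 91.2, 106 and 83.6 in control replicates 1, 2 and 4. The lowest cKOHet library, replicate 1, was still above every control. Ahr (ENSMUSG00000019256, chr12:35497974-35535038, - strand) rose by 1.55 (1.06 to 2.04, adjusted p = 0.000144), and by 1.81 without that library.

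Serpinb1a encodes an intracellular inhibitor of neutrophil-type serine proteases. It was at 468, 218 and 295 in cKOHet replicates 1, 2 and 4, against 47.8, 12.8 and 43.5 in control replicates 1, 2 and 4. Libraries differed most within groups for this gene among the tested members, by 2.15-fold in cKOHet and 3.74-fold in control libraries, and the groups remained apart. Serpinb1a (ENSMUSG00000044734, chr13:32842092-32851185, - strand) rose by 3.33 (2.46 to 4.20, adjusted p = 2.48e-05), or 10.1-fold. The value was 2.74 without control replicate 2, the library where Serpinb1a was lowest, and 3.66 without control replicate 1. Of 2277 distinct 50-base windows in its GENCODE M21 transcripts, 2.81% also occurred in transcripts of other genes, with the paralogues Serpinb1c and Serpinb1b first among them.

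Tmem176a and Tmem176b encode related membrane proteins akin to the MS4A family, expressed in type 17 lymphocytes and in myeloid cells. Tmem176a was at 115, 101 and 153 in cKOHet replicates 1, 2 and 4, against 284, 428 and 388 in control replicates 1, 2 and 4. Tmem176b was at 273, 192 and 289 in cKOHet replicates 1, 2 and 4, against 496, 622 and 575 in control replicates 1, 2 and 4. Both genes were lowest in cKOHet replicate 2 and highest in control replicate 2, and the groups did not overlap for either. Tmem176a (ENSMUSG00000023367, chr6:48840919-48847071, + strand) fell by 1.57 on the log2 scale (adjusted p = 4.34e-05), with a 95% interval of -2.00 to -1.14. Tmem176b (ENSMUSG00000029810, chr6:48833818-48841496, - strand) fell by 1.18 (adjusted p = 0.000107), with an interval of -1.54 to -0.82. Their annotated spans overlap by 578 bases, of which 81 are exonic in both, and the strand setting of the counting is not given in the sources used here. Within a library, Tmem176a stood at 0.421, 0.526 and 0.529 of Tmem176b in cKOHet replicates 1, 2 and 4, against 0.574, 0.688 and 0.675 in control replicates 1, 2 and 4. The ratio was therefore lower in every cKOHet library than in any control, although the exact permutation test cannot give a p below 0.1 for it.

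Il17re (ENSMUSG00000043088, chr6:113458484-113470758, + strand) was near the bottom of the table and was not tested in the main comparison. It was at 6.04, 2.75 and 2.11 in cKOHet replicates 1, 2 and 4, against 0.00, 9.38 and 3.19 in control replicates 1, 2 and 4, so that the groups overlapped. With no filter on low values, its log2 fold change was 0.31 with a 95% interval of -1.60 to 2.21 (limma adjusted p = 0.868).

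Compared per kilobase of exon, the order of the members differed between the groups. In cKOHet libraries Maf averaged 201 ± 24.6 and Rora 182 ± 32.2 normalised counts per kilobase (SD, n = 3 here and below). Serpinb1a followed at 142 ± 55.7 per kilobase, then Tmem176b at 106 ± 22.1. Ahr at 45.9 ± 13.3 and Tmem176a at 32.3 ± 7.09 per kilobase came next. The ranges of neighbours in this cKOHet order overlapped except between Tmem176b and Ahr, and Il17re was last at 0.619 ± 0.359. In control libraries Tmem176b led at 238 ± 26.9 per kilobase, ahead of Tmem176a at 96.3 ± 19.5 and Maf at 95 ± 9.08. Rora at 62.1 ± 5.78 and then Ahr at 15.2 ± 1.81 and Serpinb1a at 15.1 ± 8.29 per kilobase followed in controls. There the ranges of Tmem176a and Maf overlapped, as did those of Ahr and Serpinb1a, and Il17re was again last at 0.714 ± 0.813. Exon length here is the union over all annotated transcripts, so a gene that uses a short transcript reads low.

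**Figure D2:**
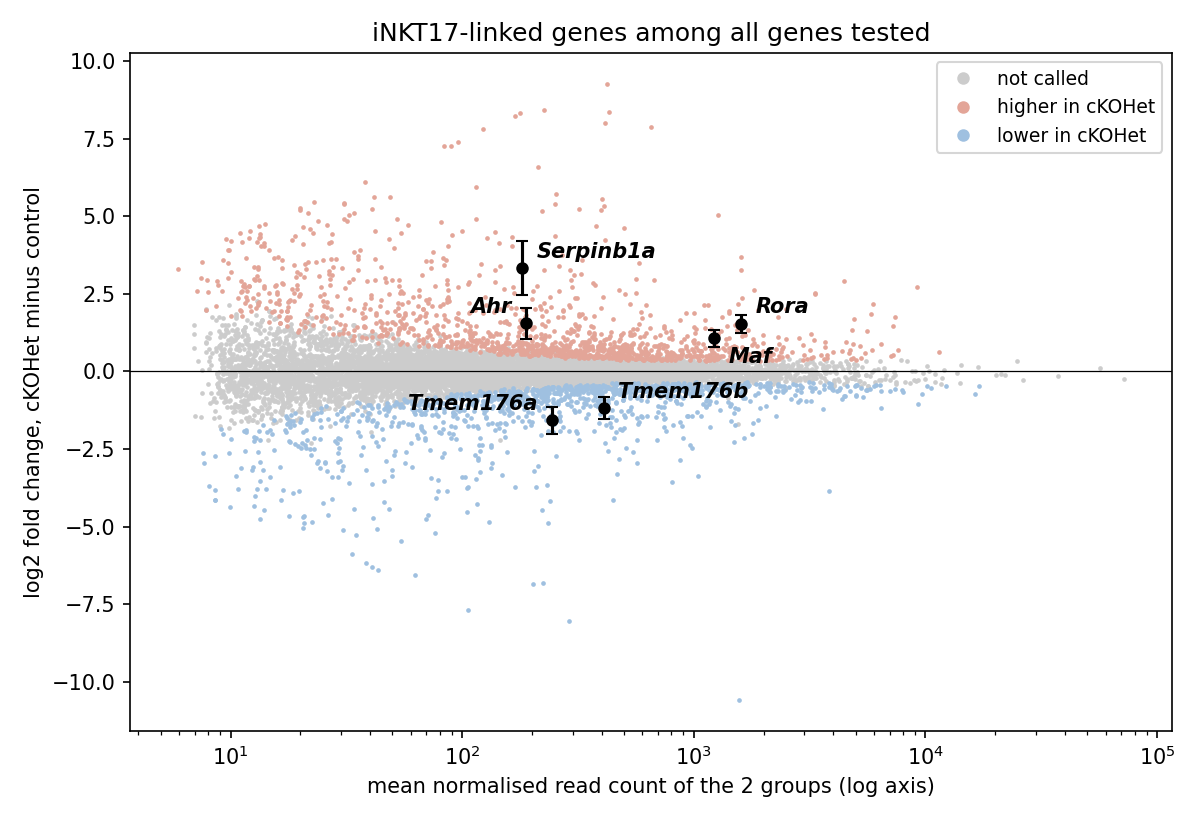
Log2 fold change (cKOHet minus control) of each tested gene against its mean normalised read count, on a log horizontal axis, with genes called higher in red, called lower in blue and not called in grey. Black points with 95% intervals are the 6 tested iNKT17-linked genes: Serpinb1a is highest at 3.33, and Tmem176a and Tmem176b lie below 0.

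Large changes were common in this comparison, and the members' changes can be read against that. The size of Serpinb1a's change was exceeded by 1.8% of tested genes in either direction. The same share was 6.79% for Tmem176a, 6.95% for Ahr and 7.01% for Rora. It was 10.5% for Tmem176b and 12% for Maf, which had the smallest change of the 6 tested members.

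ROR proteins act in the clock on genes such as Arntl and the repressor gene Nr1d1. Of 9 measured clock genes and receptor partners, 4 rose, none fell, and 5 were not called, with a median of 0.41. The 4 that rose were Nr1d1, Clock, Ncor1 and Ncoa1. Arntl and Nr1d2, named after their values were seen, were not called (0.39 and 0.35, limma adjusted p = 0.241 and 0.23). Nr1d1, which encodes the clock repressor REV-ERBα, was at 534, 350.4 and 469 in cKOHet replicates 1, 2 and 4, against 77.4, 95.05 and 51.9 in control replicates 1, 2 and 4 (log2 fold change 2.60, limma adjusted p = 9.78e-07). Clock, the activating arm of the clock, averaged 326 ± 30.1 in cKOHet and 115 ± 33.3 in control libraries (1.53, adjusted p = 8.08e-05). Ncor1 and Ncoa1, a nuclear receptor corepressor and a coactivator, rose by 0.51 and 0.63, and both calls ended without cKOHet replicate 4 (adjusted p = 0.0504 and 0.153). Ncor1 was also not called without control replicate 2 (adjusted p = 0.0691), nor Ncoa1 without control replicate 1 (0.138).

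The partners of Ahr moved unevenly. Ahr pairs with ARNT or its relative ARNT2 before binding DNA, is held in the cytosol by HSP90 and p23 (Ptges3), and induces Tiparp as a feedback gene. Of 7 measured genes of the pathway besides Ahr, 1 rose, 1 fell and 5 were not called, with a median of 0.18. The gene that rose was Arnt2, at 254, 630 and 591 in cKOHet replicates 1, 2 and 4, against 31.2, 4.34 and 6.47 in control replicates 1, 2 and 4. Arnt2 was low in all controls and its cKOHet replicate 1, like that of Ahr, was the lowest of the 3. Its log2 fold change was 5.39 (95% interval 4.26 to 6.52, adjusted p = 2.73e-06). With 1 library left out, it ranged from 4.88 without control replicate 2 to 6.18 without control replicate 1. Arnt itself averaged 505 ± 32.4 in cKOHet and 462 ± 30.5 in control libraries (0.13, interval -0.14 to 0.40, adjusted p = 0.541). By count, Arnt2 stood at 0.538, 1.24 and 1.10 of Arnt in cKOHet replicates 1, 2 and 4, against 0.0707, 0.00969 and 0.0130 in control replicates 1, 2 and 4.

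Tiparp, the measured feedback target, was at 133, 48.1 and 62.4 in cKOHet replicates 1, 2 and 4, against 62.8, 39.1 and 47.6 in control replicates 1, 2 and 4, and the groups overlapped (log2 fold change 0.58, interval -0.19 to 1.35, limma adjusted p = 0.295). Nfe2l2, which encodes the oxidative stress factor NRF2, fell by 0.46 (adjusted p = 0.042), a call that ended without any single library except cKOHet replicate 1 (adjusted p 0.0671 to 0.152) and with a replicate block (0.0615). The other pathway genes on the list, Ahrr, Cyp1a1, Cyp1a2, Cyp1b1, Nqo1, Ugt1a6a, Aldh3a1 and Il22, were not analysed here.

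**Figure D3:**
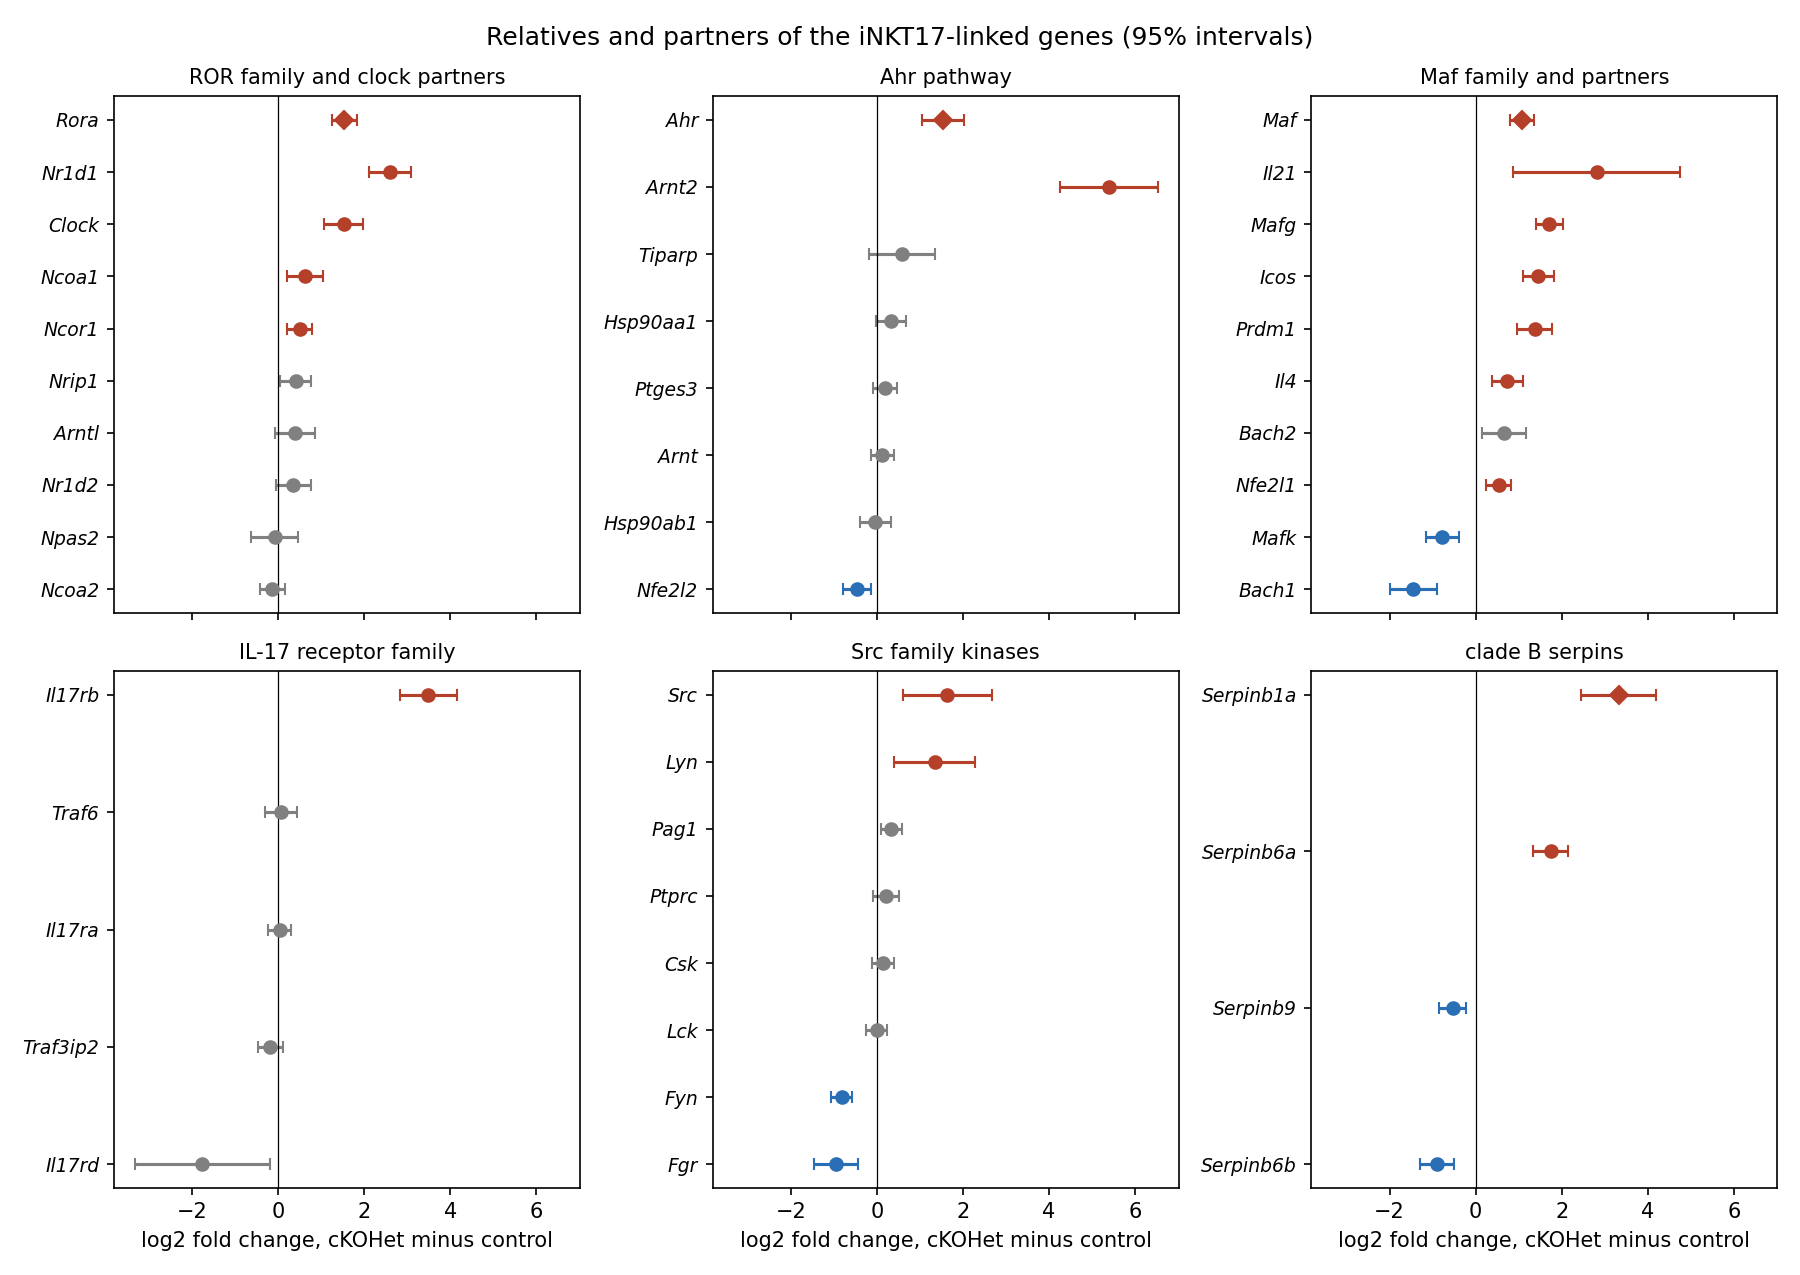
Log2 fold changes (cKOHet minus control) with 95% intervals for the tested relatives and partners of the iNKT17-linked genes, in 6 lists. Red is called higher, blue called lower and grey not called, and diamonds are the members themselves. Arnt2 is the highest point at 5.39, while Arnt lies at 0.13, and Mafg and Mafk lie on opposite sides of 0.

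Around Maf, the small Maf genes Mafg and Mafk moved in opposite directions. The small Maf proteins lack an activation domain and pair with BACH or NRF factors at sites like those of c-MAF. Of 9 tested genes of the family and its partners and targets, 6 rose and 2 fell, with a median of 0.73. Mafg was at 549, 519 and 485 in cKOHet replicates 1, 2 and 4, against 169, 146 and 159 in control replicates 1, 2 and 4 (log2 fold change 1.71, limma adjusted p = 6.74e-07). Mafk, named after its values were seen, averaged 161 ± 8.42 in cKOHet and 281 ± 58.2 in control libraries (-0.78, adjusted p = 0.00539). The count of Mafg was 3.41, 3.40 and 2.86 times that of Mafk in cKOHet replicates 1, 2 and 4, and 0.714, 0.420 and 0.610 times in control replicates 1, 2 and 4, so that every cKOHet library had more Mafg and every control more Mafk. Bach1, a repressor that pairs with small Mafs, fell by 1.45 on the log2 scale (66.8 ± 16.1 in cKOHet and 186 ± 53.8 in control libraries, adjusted p = 0.000697).

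The 4 measured cytokine, receptor and effector genes on this list, Icos, Prdm1, Il4 and Il21, were called higher in cKOHet libraries, while Il10 was not analysed here. Icos, a costimulatory receptor gene also on the type 17 list, was at 2243, 1522 and 2336 in cKOHet replicates 1, 2 and 4, against 857, 775 and 579 in control replicates 1, 2 and 4 (log2 fold change 1.46, limma adjusted p = 1.74e-05). Prdm1, which encodes the repressor BLIMP-1, rose by 1.37 (adjusted p = 9.41e-05). Il4, a classical c-MAF target chosen here with its values known, was at 344, 247 and 345 in cKOHet replicates 1, 2 and 4, against 185, 185 and 185 in control replicates 1, 2 and 4 (0.73, adjusted p = 0.00581). Il21, another target chosen with its values known, was low and overlapped between the groups, at 9.07, 36.6 and 11.4 in cKOHet replicates 1, 2 and 4 and 11.06, 0.06 and 0.07 in control replicates 1, 2 and 4 (adjusted p = 0.0383).

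**Figure D4:**
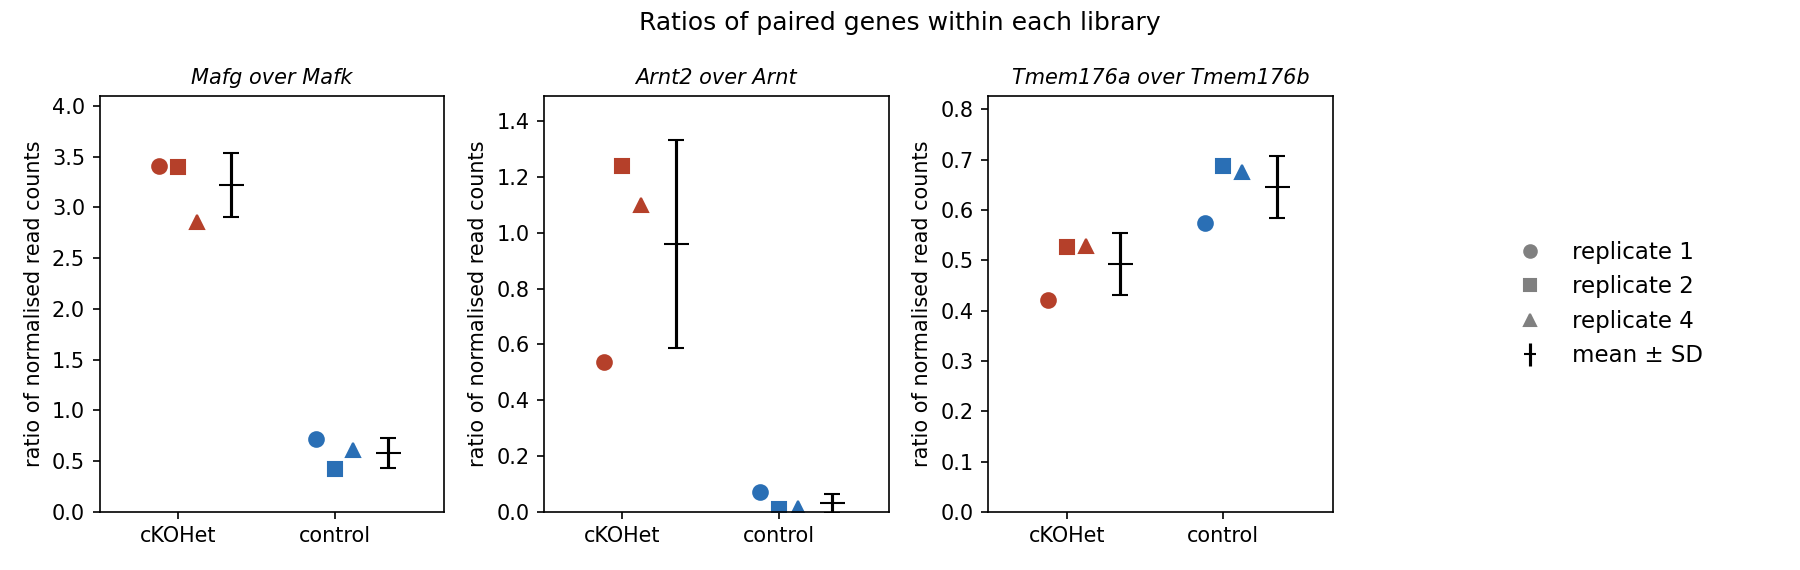
Ratios of the normalised read counts of paired genes within each library, cKOHet left and control right, on linear axes from 0. Symbols mark replicate numbers and bars the mean ± SD of 3 libraries. The groups are apart in all 3 panels: Mafg over Mafk, Arnt2 over Arnt and Tmem176a over Tmem176b.

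The wider type 17 programme was measured only in part, and its genes did not move as one. Of 29 genes on the iNKT17 and Th17 list, 19 were measured and 18 tested, of which 5 rose, 2 fell and 11 were not called, with a median of 0.14. The cytokine and receptor genes Il17a, Il17f, Il22, Il23r and Ccr6 were not analysed here. Il1r1, the interleukin-1 receptor of type 17 cells, was at 36.2, 24.2 and 29.1 in cKOHet replicates 1, 2 and 4, against 4.49, 1.14 and 5.37 in control replicates 1, 2 and 4 (log2 fold change 2.85, limma adjusted p = 0.0017). The others that rose were Icos and Il21, given above, and Sdc1 and Il21r, named after their values were seen. Sdc1 was low and averaged 34.35 ± 18.73 in cKOHet and 4.33 ± 2.8 in control libraries (2.785, adjusted p = 0.00362). Il1r1 and Sdc1 passed the filter on low values through cKOHet libraries only, so they could be called only higher. Il21r rose by 0.37 (adjusted p = 0.0279). Ramp1, a subunit of the receptor for the neuropeptide CGRP, fell by 3.09 (27.4 ± 6.83 in cKOHet and 239 ± 37.1 in control libraries, adjusted p = 5.88e-07). Irf4, a factor needed for Th17 differentiation, fell by 0.96 (106 ± 21.2 in cKOHet and 204 ± 12.4 in control libraries, adjusted p = 0.00316). The count of genes that rose was 3 without cKOHet replicate 2, control replicate 2 or control replicate 4. It was also 3 without a mean-variance trend, and 2 of 10 tested with a filter of 50 in 3 libraries.

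In the interleukin-17 receptor family, 1 of 5 tested genes rose and none fell. Il17rb, which binds interleukin 25, averaged 1054 ± 287 in cKOHet and 101 ± 53.2 in control libraries (log2 fold change 3.49, limma adjusted p = 9.72e-07). Il17ra, the chain shared by the receptors of the family, was at 685 ± 63.4 in cKOHet and 666 ± 23.6 in control libraries (0.04, interval -0.22 to 0.30, adjusted p = 0.879).

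Of 3 tested clade B serpins besides Serpinb1a, 1 rose and 2 fell. Serpinb6a averaged 287 ± 26.2 in cKOHet and 85.4 ± 12.5 in control libraries (log2 fold change 1.74, limma adjusted p = 7.67e-06). Serpinb6b and Serpinb9, which encodes an inhibitor of granzyme B, fell by 0.90 and 0.54 (adjusted p = 0.00255 and 0.0174). The Serpinb9 call ended without cKOHet replicate 2 (adjusted p = 0.0844), control replicate 1 (0.0611) or control replicate 2 (0.0655).

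Of 8 tested Src-family kinases and regulators on the list with Blk, 2 rose, 2 fell and 4 were not called. Fyn, which acts in the signalling that selects iNKT cells, averaged 1619 ± 178 in cKOHet and 2852 ± 83.3 in control libraries (log2 fold change -0.82, limma adjusted p = 9.48e-05), and Fgr fell by 0.96 (adjusted p = 0.00886, or 0.0553 without a mean-variance trend). Src and Lyn were low and were called higher (1.64 and 1.34, adjusted p = 0.0241 and 0.0434), with adjusted p up to 0.116 and 0.161 when 1 library was left out. With 1 library left out, Src was still called only without cKOHet replicate 1 or control replicate 2, and Lyn only without cKOHet replicate 2. The Lyn call also ended with a replicate block (adjusted p = 0.0509). Lck, the main Src-family kinase of T cells, was at 5029 ± 338 in cKOHet and 5049 ± 234 in control libraries (-0.01, interval -0.26 to 0.24). None of 5 tested genes of the MS4A family was called by limma. An unadjusted p under 0.05 was found for 4 of the 5, and 3 had groups that did not overlap. Among all genes tested, 35.8% had groups that did not overlap. The share with such an unadjusted p was not computed, but is at least the 21.4% that were called. The 2 MS4A genes with the smallest adjusted p were Ms4a4b (0.38, adjusted p = 0.0633) and Ms4a6b (-0.44, adjusted p = 0.0642). Both were called with a replicate block (adjusted p = 0.0344 and 0.0282). Ms4a4b was also called without cKOHet replicate 2 (0.0489), and Ms4a6b without cKOHet replicate 1 (0.00911) or control replicate 4 (0.0353).

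**Figure D5:**
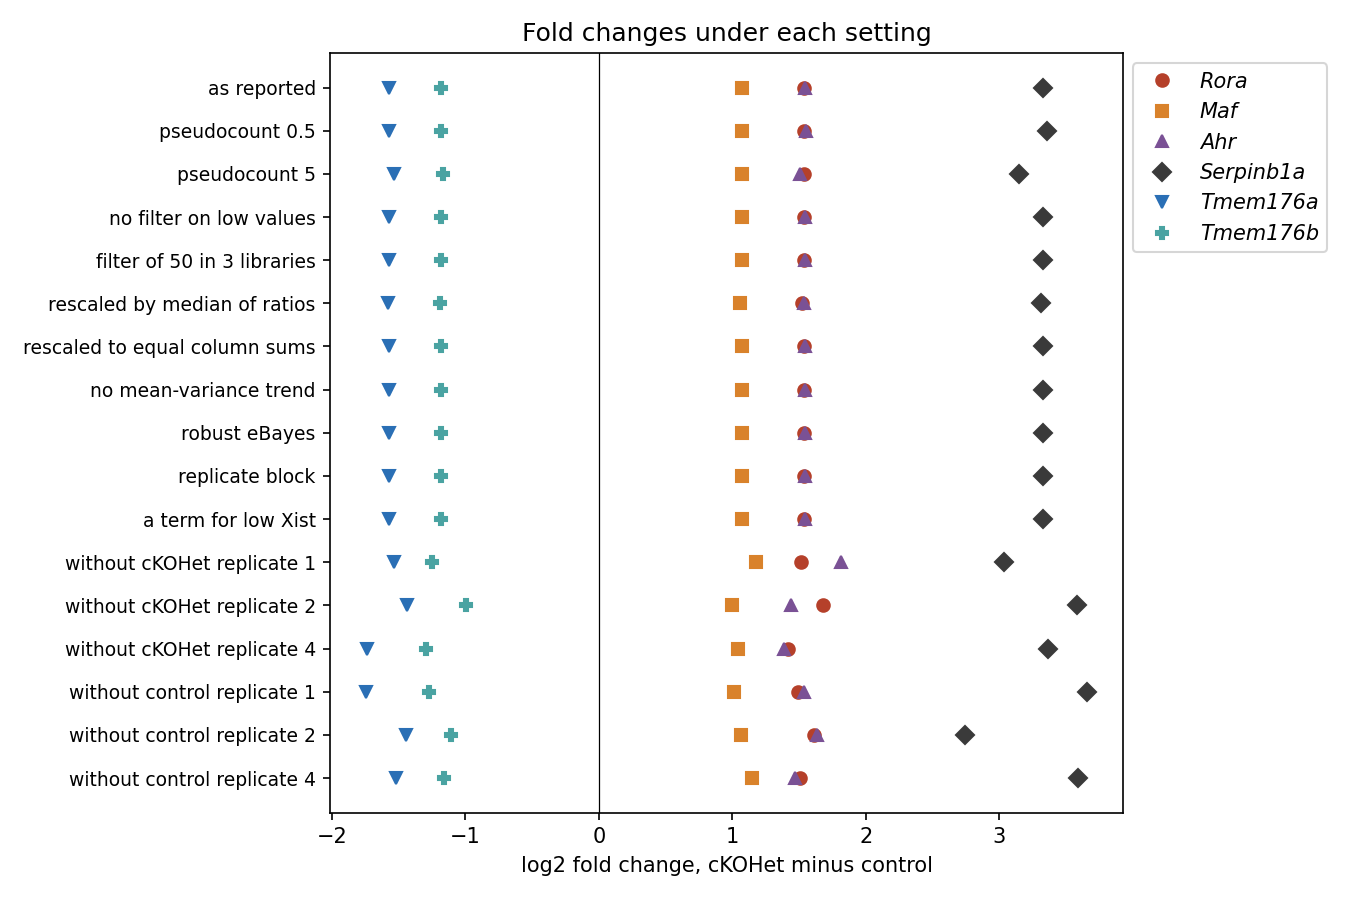
Log2 fold change (cKOHet minus control) of the 6 tested members, 1 symbol per gene, under the reported setting and 16 alternatives listed down the axis. Each gene stays on its side of 0, and Serpinb1a moves most, between 2.74 and 3.66.

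The genes with the nearest pattern to each member were found by the root mean square difference of log2 levels over the 6 libraries after centring each gene, among 8594 other tested protein-coding genes whose higher group mean was 50 or more. For Rora these were Prune1 and Axin2, at 0.0991 and 0.0992 log2 units. Gfod1 and Rarg came nearest to Maf (0.0766 and 0.0848), and Myo9a and Sgsm2 to Ahr (0.181 each). The gene nearest to Serpinb1a, Itm2a, was farther away, at 0.415. L3mbtl3 and Pde4d were nearest to Tmem176a (0.0975 and 0.156), and Tnfaip8l2 and Vps37c to Tmem176b (0.0888 and 0.115). Tmem176b ranked 10 among the genes nearest to Tmem176a, at 0.238, and Tmem176a ranked 64 for Tmem176b. Rora, Maf and Ahr lay 0.316 to 0.335 from one another, with ranks of 74 to 653. Since the 6 libraries fall into 2 groups, genes with similar fold changes score as alike by this measure.

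The labelled cell type was checked against its markers, and the library facts that touch these results follow. The column sums were 4996523 to 5219483, and original depth is unknown. Ets1 was at 462, 596 and 441 in cKOHet replicates 1, 2 and 4, against 7391, 6255 and 7787 in control replicates 1, 2 and 4, and Tbx21 averaged 2206 ± 98.5 in cKOHet and 2568 ± 174 in control libraries. All 12 iNKT1 and T cell genes looked for were measured, with Trac at 2869 or more and Cd3e at 3411 or more in every library. Of these 12, 1 rose and 4 fell (Xcl1, Trbc2, Klrk1 and Il2rb). The gene that rose was Zbtb16, named after its values were seen (log2 fold change 0.525, limma adjusted p = 0.0267). That count was 0 without cKOHet replicate 4, control replicate 1 or control replicate 2, and without a mean-variance trend. Replicate 4 had almost no Xist in either group. Genes of macrophages and Kupffer cells, which express Maf, Tmem176a and Tmem176b, summed to 170 to 238 normalised counts over 11 measured genes in cKOHet and 38.8 to 103 in control libraries, with 3 of 6 tested called higher and none lower. Those called were Cd5l, Clec4f and Csf1r, chosen with their values known, while Marco and Vsig4 were too low to test. Cd5l passed the filter through cKOHet libraries only. This sum was higher in cKOHet libraries, as Maf was, whereas Tmem176a and Tmem176b were lower. Dendritic cell genes summed to 433 to 550 over 6 genes in cKOHet and 187 to 238 in control libraries, with 4 of 5 tested called higher, or 2 without cKOHet replicate 2. Genes of γδ T and innate lymphoid cells summed to 2012 to 2752 over 4 genes in cKOHet and 1511 to 1873 in control libraries, with 3 of 4 called higher. That count was 1 without a mean-variance trend, and 2 without control replicate 1 or 4 or any cKOHet library. The sum was mostly Tcrg-C1 (759 in cKOHet, 743 in control libraries, limma adjusted p = 0.915) and Tcrg-C2, which was called. Il1rl1 and Eomes, also called, were low. Il1rl1 passed the filter through cKOHet libraries only, and Eomes overlapped between the groups. All 4 are named after their values were seen. Hepatocyte genes, led by Alb, summed to 271 to 649 in cKOHet and 203 to 401 in control libraries. Of 12 B cell genes looked for, relevant to Blk, 3 were measured, and the 2 tested, Cd22 and Ighm, were called lower in cKOHet libraries. Cd22 was at 0.00 to 0.04 there and at 12.6 to 21.9 in control libraries. It passed the filter through controls only, so it could be called only lower. The sum of the 3 genes, mostly Ighm, was 766 to 1054 in cKOHet and 1908 to 2086 in control libraries, and Bank1 was too low to test. Of 7 endothelial genes looked for, 2 were measured. Pecam1, which made up most of their sum, was also lower (limma adjusted p = 8.44e-06). Stab2 was too low to test, at 6.64 ± 5.68 in cKOHet and 1.6 ± 1.87 in control libraries. The part of such cells in the members' changes was not tested.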

How the data were processed

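RNA was sequenced from 3 cKOHet and 3 control liver iNKT libraries, made with the Ovation Ultralow system per the labels' protocols. The authors deposited a signal per Ensembl gene, which the file's name calls HTSeq counts after normalisation. Trimmomatic 0.33, STAR, HTSeq 0.6.1, DESeq2 and the build mm10 are listed in the submitters' processing notes. The sources used here do not give settings, strand or annotation, and no gene's maximum is below 5.22. Values are not whole, so depth is unknown and no count test was run.

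GENCODE M21 named 12864 of 12942 identifiers. The 11226 genes that reached 10 in 3 or more of 6 libraries were tested as log2(value + 1) with limma 3.58.1 (R 4.3.3, mean-variance trend, p adjusted by Benjamini-Hochberg over these 11226). The procedure was also run on simulated counts with the same dispersion for every gene. The check there was set on median fold changes and not on calls. Alternatives covered pseudocount, filter, scaling, variance model, replicate block, Xist and each library left out. Members, lists and tests were chosen with earlier results of these data known. Named genes were the members, Ets1, Tbx21, the 4 called genes of each list with the smallest adjusted p (2 where none was called), fixed relatives such as Lck, and the 2 nearest patterns per member. Some genes that these rules or lists would name are not reported here, and list counts leave them out. Others are said to be named after their values were seen. The p-values measure the spread between libraries.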

Additional observations from a re-analysis of the deposited data

How the results depend on the processing

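Across 16 alternatives, the calls of Rora, Maf, Ahr, Serpinb1a, Tmem176a and Tmem176b kept their direction and their side of the threshold, so 4 members were higher and 2 lower in each. The highest adjusted p of each was without a mean-variance trend (0.00263 for Rora to 0.0115 for Tmem176b). Leaving out 1 library gave 1.42 to 1.68 for Rora, 1.001 to 1.18 for Maf, 1.39 to 1.81 for Ahr, 2.74 to 3.66 for Serpinb1a, -1.74 to -1.44 for Tmem176a and -1.29 to -0.997 for Tmem176b. Over all genes, 1288 were higher and 1119 lower. These counts were 897 and 773 without a trend, and 1002 to 1174 and 829 to 1033 with 1 library left out. Of 797 alternative values for 50 named genes, 756 kept direction and side, 28 lost the call, 9 gained it and 4 changed sign. Many of these genes were chosen by small adjusted p or by nearness to a called member, which favours stable calls. Il21, Sdc1, Il21r, Il4, Mafk and Zbtb16 were not among them. The sign changes were in genes near 0. Il17ra was at -0.034 without cKOHet replicate 4, and between -0.034 and 0.097 with any library left out. Lck was at 0.028 without cKOHet replicate 1, 0.013 without cKOHet replicate 4 and 0.028 without control replicate 4, and between -0.061 and 0.028 with any library left out. Counts in short lists moved with single libraries: the list of clock genes and receptor partners had 2 genes higher without cKOHet replicate 4, and the causes were not tested. Without a mean-variance trend, the calls of Ncor1, Ncoa1, Nfe2l2, Fgr and Serpinb9 ended (adjusted p 0.0553 to 0.139). Ms4a4b and Ms4a6b, not called as reported, were called under 3 and 6 alternatives, among them robust variance moderation (adjusted p = 0.0376 and 0.049), and Ms4a6b also with a filter of 50 (0.0498) and a term for low Xist (0.048). Since depth is unknown, Il17re at single-digit counts could not be measured closely.

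The replicate block gave 1274 genes higher and 1138 lower and changed no member's call. Among the other named genes it ended the calls of Nfe2l2 and Lyn, and Ms4a4b and Ms4a6b were called under it (adjusted p = 0.0344 and 0.0282). Deviations of same-numbered libraries correlated at 0.092, 0.088 and 0.055 across genes, and every library correlated best with its own number. No pairing is stated in the labels, and none was used in the main comparison. Whether the numbers are pairs cannot be told from these low correlations.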
